A study of Mus musculus with 6 samples.

Results

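Sox4, Sox11 and Sox12 are the members of the SoxC group of transcription factors, and their transcripts were followed here in cells sorted from the subependymal zone of the adult mouse brain. The 3 genes were chosen by name, among 32527 gene symbols listed in these libraries, and all of them were measured in all 6 libraries. RNA sequencing was done on 3 libraries from mice injected into the ventricles with an antagomir against miR-204 (labelled AmiR_204_treated_cells) and on 3 libraries from mice injected with vehicle, artificial cerebrospinal fluid (labelled aCSF_treated_cells). In both groups the animals were gfap:GFP transgenic mice of the strain given as C56BL/6J, 3 months old, in which the promoter of Gfap, active in astrocytes and in stem cells, drives green fluorescent protein, and cells were isolated by flow cytometry 3 days after the injection. An antagomir is a chemically modified antisense strand that ties up its microRNA. The labels name no control oligonucleotide, and the injected oligonucleotide cannot be told apart from the block of miR-204. They do not say whether replicates came from separate animals or from pools, so the p-values speak only of the spread between these libraries, part of which may be technical.

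SoxC proteins bind DNA through a high-mobility-group box and activate transcription through a C-terminal domain. In the developing and adult nervous system they are known for switching on genes of immature neurons, with Sox4 and Sox11 the main activators and Sox12 the weakest. In the adult subependymal zone Sox4 and Sox11 are known as genes of neuroblasts, the migrating immature neurons that descend from the stem cells, while resting stem cells are known for Sox2 and Sox9. Sox4 and Sox11 are reported targets of miR-204, a microRNA that pairs through its seed, bases 2 to 8, with complementary sites in the 3′ untranslated region (3′ UTR) of a transcript. The comparison of antagomir with vehicle asks whether their transcripts were higher where miR-204 was blocked. The level of miR-204 itself was not analysed here.

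The mature sequences, from RefSeq (GRCm38.p6), show the seed that the matches below answer to, in capitals. miR-204-5p lies on chromosome 19 (22750610 to 22750631, plus strand), and miR-211-5p, on chromosome 7 (64205831 to 64205852, plus strand), has the same seed, so a seed match cannot be assigned to either one.
miR-204-5p: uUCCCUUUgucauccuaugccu
miR-211-5p: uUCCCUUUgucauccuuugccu

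All 3 SoxC transcripts hold matches to this seed in their annotated 3′ UTR, and the 7 matches are shown as the 22 bases that end with the match, in capitals, because they are the places where blocking miR-204 could act directly. Positions count from the first base after the stop codon, and coordinates are GRCm38, minus strand. The motifs searched on the transcript strand were AAAGGGA (the 7mer-m8 match), the same followed by A (the 8mer match) and AAGGGAA (the 7mer-A1 match), each place counted once as the longest type it made.
Sox4 base 2106, 7mer-m8 (chr13:28949587-28949608): gtgcattcacagcaaAAAGGGA
Sox11 base 543, 7mer-m8 (chr12:27340672-27340693): aaaagaaaaacacaaAAAGGGA
Sox11 base 914, 8mer (chr12:27340300-27340321): tttttgtacagtgaAAAGGGAA
Sox11 base 4553, 8mer (chr12:27336661-27336682): atagcatggcgtacAAAGGGAA
Sox12 base 601, 7mer-m8 (chr2:152396147-152396168): ctgttgccaactccgAAAGGGA
Sox12 base 708, 7mer-m8 (chr2:152396040-152396061): atgggaggcgcactcAAAGGGA
Sox12 base 2809, 7mer-m8 (chr2:152393939-152393960): gtagataacattgagAAAGGGA

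Sox11 was the only member with 8mer matches, 2 of its 3, while Sox4 had 1 match and Sox12 had 3, all of the 7mer-m8 type. The 3′ UTRs are long, at 2780 bases in Sox4, 6957 in Sox11 and 3143 in Sox12, against a median of 701 bases over 19468 genes. Among genes whose 3′ UTR was 0.8 to 1.25 times as long, an 8mer or 7mer-m8 match was held by 28.6% of 1795 genes for the length of Sox4, by 54.5% of 224 genes for Sox11 and by 31.5% of 1555 genes for Sox12. Over all genes searched the share was 12.1%. A match is a description of these letters and not a shown site of action.

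**Figure D1:**
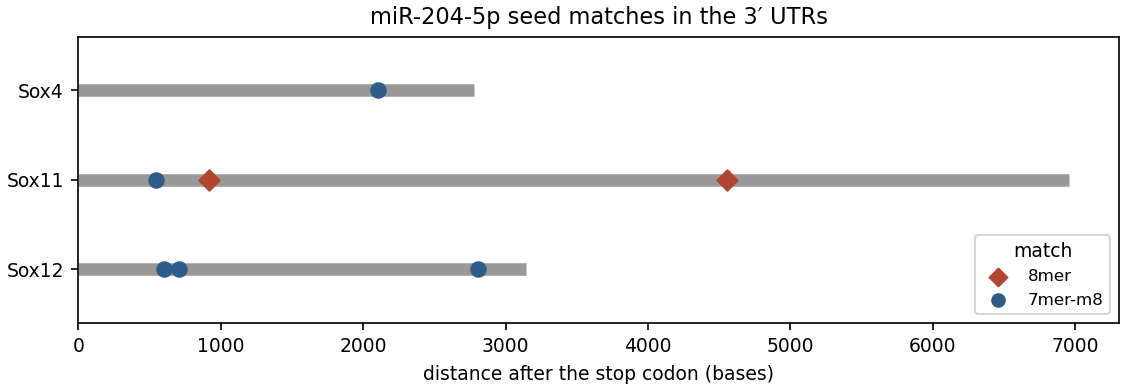
Seed matches of miR-204-5p along the 3′ UTRs of the SoxC transcripts, with the grey bar as the length of each 3′ UTR and the x axis as bases after the stop codon. Diamonds are 8mer matches (2, both in Sox11) and circles 7mer-m8 matches (1 in Sox4, 1 in Sox11 and 3 in Sox12).

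The libraries held 14866453 to 19694409 estimated counts and 17180 to 17975 genes with at least 1 count. The titles call the cells qNSCs, for quiescent neural stem cells. Gfap, a marker of such cells and of astrocytes, measured 126 to 362 TPM (abundance per transcript length, scaled to the same total in each library). Markers of other cells were also present, with 6935 to 16425 TPM summed over 11 oligodendrocyte genes and 2967 to 5153 TPM over 8 ependymal genes. Antagomir replicate 1 stood apart by 27 neuroblast genes, with 6973 summed TPM against 1920 to 4144 in the other libraries. Vehicle replicate 1 stood apart by 10 microglia genes, with 2072 summed TPM against 115 to 279, and was the second highest library in neuroblast genes. By edgeR's quasi-likelihood test, adjusted by Benjamini-Hochberg, 0 of 15012 tested genes (0%) passed 0.05, and the count under an unadjusted p of 0.05 was 616 (4.1%). Also, limma called 0 genes and DESeq2 called 5 of 20746 (0.0241%). The groups did not overlap in 10.5% of tested genes, 5.07% with antagomir higher and 5.45% with antagomir lower.

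Sox4, a single-exon gene on chromosome 13 (ENSMUSG00000076431.4, 28948919 to 28953713), was the main SoxC transcript of the sorted cells. Its level was 659.3, 258.4 and 316.1 CPM in antagomir replicates 1, 2 and 3, against 382.7, 174.1 and 171.6 CPM in vehicle replicates 1, 2 and 3. CPM is the count scaled to library size after TMM scaling. Replicate 1 was the highest library of either group, and the groups overlapped because vehicle replicate 1 lay above antagomir replicates 2 and 3. The mean was 411.2 ± 216.7 CPM with antagomir and 242.8 ± 121.2 CPM with vehicle (SD, n = 3 each). The log2 fold change was 0.76 with a 95% interval of -0.21 to 1.74, and it did not pass edgeR's test (adjusted p = 0.949). The exact two-sided permutation test of the 6 CPM values gave p = 0.3, where 3 against 3 libraries cannot go below 0.1.

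Sox11, also of 1 exon (ENSMUSG00000063632.6, chromosome 12, 27334264 to 27342574), is the SoxC gene most tied to immature neurons. It measured 111.1, 47.72 and 33.69 CPM in antagomir replicates 1, 2 and 3, against 88.15, 24.89 and 38.28 CPM in vehicle replicates 1, 2 and 3. Both replicates numbered 1 lay above all other libraries, and among those others antagomir replicate 3 lay below vehicle replicate 3. Means were 64.16 ± 41.23 CPM with antagomir and 50.44 ± 33.33 CPM with vehicle (SD, n = 3 each), a log2 fold change of 0.35 with a 95% interval of -0.91 to 1.60 (edgeR adjusted p = 0.956, exact permutation p = 0.6).

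Sox12 (ENSMUSG00000051817.8, chromosome 2, 152393611 to 152398063) is a broadly expressed SoxC gene. It measured 45.44, 24.50 and 17.81 CPM in antagomir replicates 1, 2 and 3, against 30.77, 24.71 and 26.25 CPM in vehicle replicates 1, 2 and 3. The vehicle libraries lay close together and within the range of the antagomir libraries, which held both the highest and the lowest value. Means were 29.25 ± 14.42 CPM with antagomir and 27.24 ± 3.151 CPM with vehicle (SD, n = 3 each), a log2 fold change of 0.10 with a 95% interval of -0.67 to 0.88 (edgeR adjusted p = 0.980, exact permutation p = 1). All 6 libraries had their Sox12 counts assigned to the single-exon transcript, with 0 on a second annotated transcript of 2 exons.

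**Figure D2:**
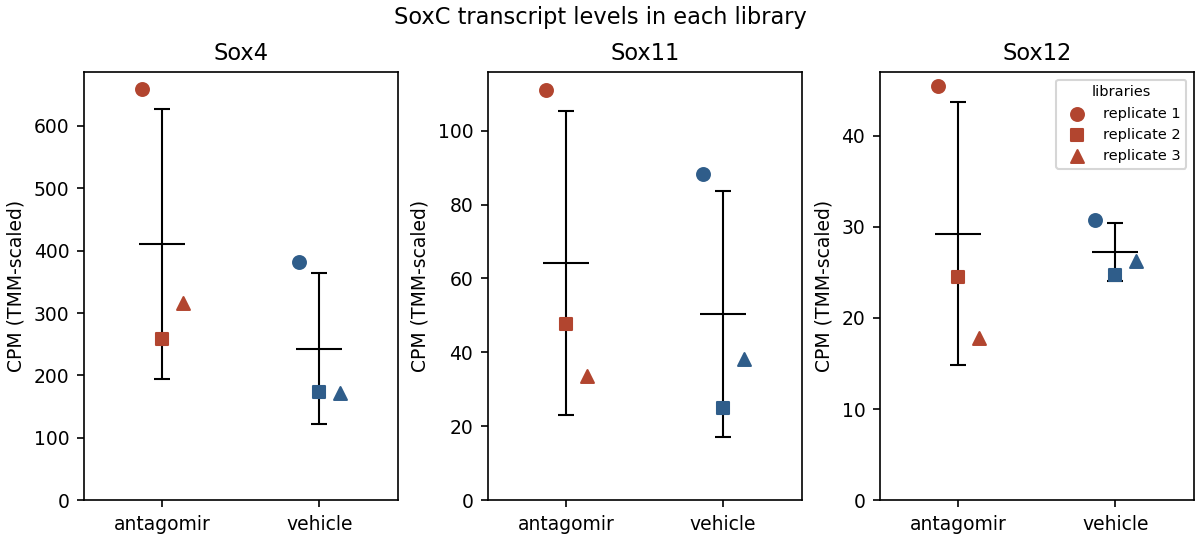
CPM of Sox4, Sox11 and Sox12 in each library, antagomir left of vehicle, with the marker shape as the replicate number, the bar as the mean and whiskers of 1 SD (n = 3). Antagomir replicate 1 is the highest library for all 3 genes, and the groups overlap in each panel.

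Counting error was small beside the full range of each gene over the libraries, but not beside the gaps among the nearest Sox12 libraries. Nor was it small beside the gap between vehicle replicates 2 and 3 in Sox4 (174.1 and 171.6 CPM). Sox4 rested on 2847 to 10838 estimated counts per library, with a counting coefficient of variation of 0.961 to 1.87%, Sox11 on 407.1 to 1826 (2.34 to 4.96%) and Sox12 on 314 to 747 (3.66 to 5.64%). These figures cover counting error only. The highest library was 3.84-fold above the lowest for Sox4, 4.46-fold for Sox11 and 2.55-fold for Sox12, in CPM. The lncRNA gene Gm26735 overlaps Sox4 on the opposite strand, and the kit does not mark strand, so reads of the 2 genes cannot be told apart where they overlap. No annotated gene overlaps Sox11 or Sox12.

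The fold changes rested on single libraries, and those of Sox11 and Sox12 changed sign. Without antagomir replicate 1 the log2 fold change was 0.24 for Sox4, -0.31 for Sox11 and -0.37 for Sox12. Without vehicle replicate 1 it was 1.26 for Sox4, 1.03 for Sox11 and 0.21 for Sox12. For Sox4 that was the largest value, with an unadjusted p of 0.0117 and an edgeR adjusted p of 0.579, so no call was made there either. Leaving out antagomir replicate 3 gave 0.67 for Sox11 and 0.38 for Sox12, and leaving out vehicle replicate 2 gave 0.02 for Sox11 and 0.04 for Sox12. Sox11 was at 0.20 when vehicle replicate 3 was omitted. The Sox4 value kept its sign in all 6 cases.

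**Figure D3:**
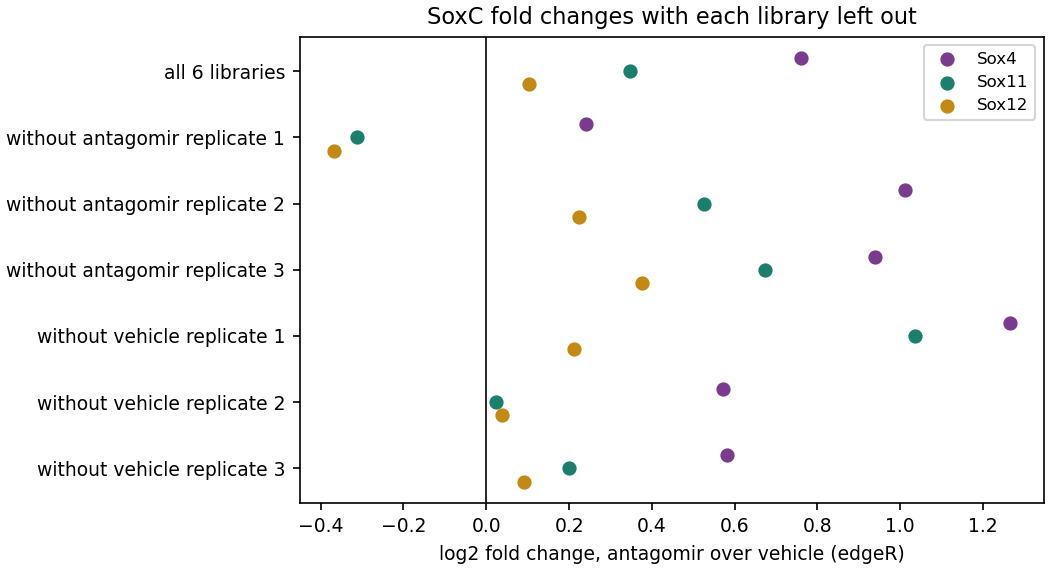
log2 fold change of antagomir over vehicle from edgeR (x axis) for Sox4, Sox11 and Sox12, with all 6 libraries in the top row and with each library left out in the rows under it. Sox4 stays between 0.24 and 1.26, while Sox11 (-0.31) and Sox12 (-0.37) are negative without antagomir replicate 1.

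Compared per length, in TPM, Sox4 made up most of the SoxC transcripts. Sox4 measured 240, 92.9 and 115 TPM in the antagomir libraries and 131, 61.7 and 58.4 TPM in the vehicle libraries. Sox11 and Sox12 stood near each other and about an order of magnitude lower, with 6.95 to 23.0 and 6.98 to 17.9 TPM in the antagomir libraries and 5.01 to 17.2 and 9.45 to 11.4 TPM in the vehicle libraries. The difference between Sox11 and Sox12 was within their spread, since the ratio of Sox11 to Sox12 was 0.996 to 1.29 in the antagomir libraries and 0.53 to 1.51 in the vehicle libraries. By its mean over 6 libraries Sox4 (116 TPM) stood above 93.3% of 21803 protein-coding genes, Sox11 (11.5 TPM) above 56.8% and Sox12 (10.8 TPM) above 56.0%.

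Summed over the 3 genes, SoxC reached 281, 112 and 129 TPM in antagomir replicates 1, 2 and 3, against 160, 76.2 and 75.4 TPM in vehicle replicates 1, 2 and 3. The groups overlapped in this sum. Sox4 supplied 85.5, 82.8 and 89.2% of it in the antagomir libraries and 82.1, 81.0 and 77.4% in the vehicle libraries. The share from Sox4 thus did not overlap between the groups, by less than 1 percentage point at the nearest pair, as 10.5% of tested genes did not. Sox11 supplied 8.18, 8.69 and 5.40% in the antagomir libraries and 10.7, 6.58 and 9.81% in the vehicle libraries. Sox12 supplied 6.36, 8.48 and 5.43% in the antagomir libraries and 7.13, 12.4 and 12.8% in the vehicle libraries.

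Within the Sox family, Sox4 took rank 4 of 19 genes by mean TPM, under Sox9 (516 TPM) and Sox2 (292 TPM), the stem cell and astrocyte factors, and Sox8 (132 TPM), a glial factor. Its range of 58.4 to 240 TPM overlapped those of Sox8 (94.9 to 171), Sox10 (51.3 to 124) and Sox21 (65.6 to 111), so the order of these neighbours was not beyond their spread. Sox11 and Sox12 took ranks 10 and 11, beside Sox1 (10.8 TPM). SoxC took 19.6, 8.23 and 7.81% of the family's summed TPM in antagomir replicates 1, 2 and 3, against 12.4, 5.23 and 5.50% in vehicle replicates 1, 2 and 3. The 16 other Sox genes together ranged from 1124 to 1519 TPM, 1.35-fold, while the SoxC sum, mostly Sox4, ranged 3.72-fold. Sox9 (454 to 627 TPM) and Sox2 (251 to 331 TPM) led the sum of the 16. Single genes among them ranged more widely, as Sox3 from 2.77 to 13.5 TPM, so a wide range was not particular to SoxC. Of the 12 other Sox genes tested, 6 had positive and 6 negative fold changes, 0 passed edgeR's test and their median log2 fold change was -0.019, beside -0.006 over all tested genes.

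**Figure D4:**
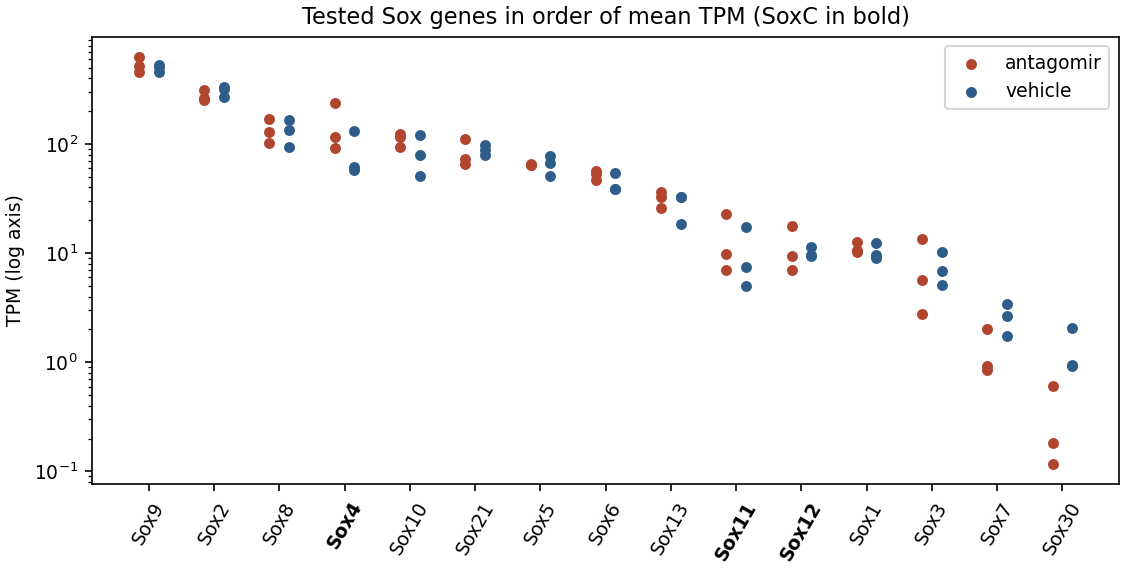
TPM on a log axis of the 15 Sox genes that passed the count filter, ordered by mean TPM, with 3 antagomir libraries left of 3 vehicle libraries for each gene and SoxC names in bold. Sox4 lies among Sox8, Sox10 and Sox21, and Sox11 and Sox12 lie near Sox1.

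Across the 6 libraries the genes most like Sox4 included members of the neuroblast list. The measure was the root mean square difference of log2 CPM after centring each gene on its 6-library mean, among 2981 genes with a mean of at least 10 CPM and a range of at least 1 log2 unit. The nearest genes to Sox4 included Marcksl1, an actin and membrane protein of growing neurons (0.0691), Dlx2, a homeobox factor of olfactory interneurons (0.0748), Samd14 (0.106), Mturn, a gene of neural differentiation (0.118), and the stathmin Stmn3 (0.126). Sox4 itself had a root mean square of 0.673 about its own mean. Marcksl1 measured 598, 250 and 291 CPM in the antagomir libraries and 355, 181 and 171 CPM in the vehicle libraries, the same order of libraries as Sox4. Marcksl1 and Dlx2 are members of the neuroblast list used here.

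The genes nearest to Sox11 were the semaphorin receptor gene Plxna4 (0.142), the axon guidance gene Draxin (0.154), the sialyltransferase gene St8sia3 (0.155), the neuronal tubulin gene Tubb2b (0.187), Bzw2 (0.193) and the Slit receptor gene Robo2 (0.201). Plxna4 measured 95.7, 53.6 and 39.0 CPM in the antagomir libraries and 95.4, 24.3 and 40.8 CPM in the vehicle libraries. The nearest to Sox12 were Cklf (0.0846), the selenoprotein gene Selenoh (0.0950), the G protein chaperone gene Ric8b (0.102), Caln1 (0.102), the neuronal splicing factor gene Rbfox3 (0.110) and the cytochrome oxidase assembly gene Coa7 (0.115). The SoxC genes were not among each other's nearest. The difference was 0.381 between Sox4 and Sox11, with 341 genes nearer to Sox4 and 104 nearer to Sox11, 0.523 between Sox4 and Sox12, and 0.491 between Sox11 and Sox12. These likeness values describe 6 points that share their libraries.

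**Figure D5:**
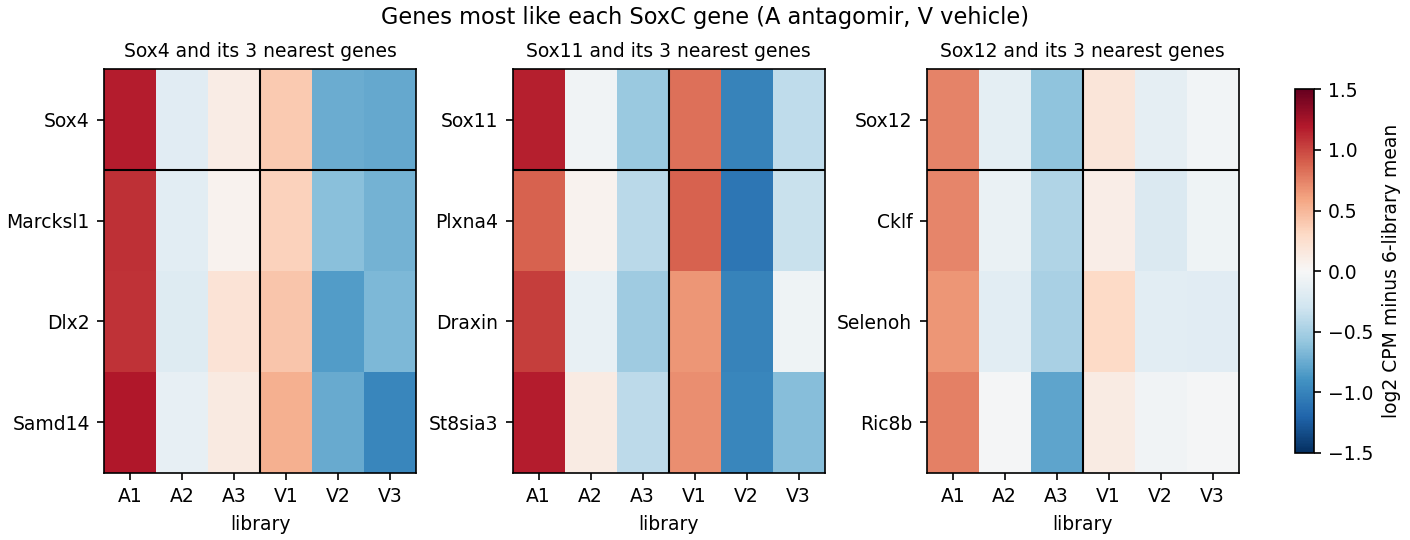
log2 CPM minus the 6-library mean (colour) for Sox4, Sox11 and Sox12 in the top rows and the 3 genes nearest to each under them, over antagomir (A1 to A3) and vehicle (V1 to V3) libraries. A1 is the highest library for all 3 SoxC genes, with V1 next, and V2 is the lowest for Sox11 while A3 is the lowest for Sox12.

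The neuroblast list as a whole had positive log2 fold changes in 27 of 27 tested genes with a median of 0.80, against 49.1% positive and a median of -0.006 over all tested genes. The smallest of these fold changes was in effect 0, in Cd24a, with means of 329.6 CPM with antagomir and 329.5 CPM with vehicle. Of the 27, edgeR called 0 and 1 lay under an unadjusted p of 0.05. The summed level of the list was 6973, 3498 and 3368 TPM in antagomir replicates 1, 2 and 3, against 4144, 2413 and 1920 TPM in vehicle replicates 1, 2 and 3, and none of its members was at 0 in any library. Set against this sum, Sox4 stayed within 1.35-fold over the 6 libraries, with 3.44, 2.66 and 3.41 TPM per 100 TPM of the list in the antagomir libraries and 3.16, 2.56 and 3.04 in the vehicle libraries. Stmn1, at 610 to 2230 TPM, led the sum, so the ratio does not hold for each gene of the list. Dcx (6.25 to 79.1 TPM) and Tubb3 (30.1 to 379 TPM) ranged more widely than Sox4 (58.4 to 240 TPM), and Ncam1 (310 to 456 TPM) less. Sox11 per 100 TPM of the list was 0.330, 0.279 and 0.206 in the antagomir libraries and 0.414, 0.208 and 0.385 in the vehicle libraries. Sox12 was 0.256, 0.272 and 0.207 in the antagomir libraries and 0.275, 0.392 and 0.502 in the vehicle libraries. These groups did not overlap, by a narrow gap of 0.272 against 0.275, while 5.45% of all tested genes were lower without overlap. The Sox12 level in CPM did overlap, so the gap belongs to the ratio with the list and not to Sox12 alone. In these bulk libraries more cells of a type and more RNA per cell cannot be told apart, and the part of neuroblast content in the SoxC values was not tested.

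Without antagomir replicate 1 the median log2 fold change of the neuroblast list was 0.13, and without vehicle replicate 1 it was 1.73. Stmn1, a microtubule regulator and the neuroblast gene with the smallest p, measured 1182, 712.1 and 664.5 CPM in antagomir replicates 1, 2 and 3, against 681.9, 517.4 and 345.0 CPM in vehicle replicates 1, 2 and 3 (log2 fold change 0.73, edgeR adjusted p = 0.949). The olfactory interneuron factor Sp8 measured 14.17 ± 11.42 CPM with antagomir and 3.708 ± 4.292 CPM with vehicle (SD, n = 3 each). Dlx1, a homeobox partner of Dlx2, measured 227.4 ± 151.2 CPM with antagomir and 107.7 ± 88.76 CPM with vehicle (SD, n = 3 each). In all 3 genes antagomir replicate 1 was the highest library, as in SoxC.

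Lists of other cell types lay farther from Sox4. The root mean square difference between Sox4 and the summed TPM of a list, both on the log2 scale and centred, was 0.164 for neuroblast, 0.396 for cell cycle, 0.456 for mature neuron, 0.690 for quiescent stem cell and astrocyte, 0.840 for oligodendrocyte precursor and 1.5 for microglia genes. For Sox11 the neuroblast list was nearest (0.396), and for Sox12 the mature neuron list (0.224). The mature neuron sum, 563 to 998 TPM, came mostly from Ppp1r1b, at 391 to 636 TPM, so this likeness does not hold for each gene of that list. Genes of oligodendrocyte precursors, which are also known to express Sox4 and Sox11, gave 505, 680 and 762 summed TPM in the antagomir libraries. The vehicle libraries gave 356, 634 and 451 TPM. Antagomir replicate 1 was the lowest of its group in this sum, of which Olig1 alone gave 261, 359 and 399 TPM with antagomir. Single genes of the list went both ways in antagomir replicate 1. Vcan measured 14.5, 8.03 and 8.67 TPM in antagomir replicates 1, 2 and 3, and Enpp6 measured 16.2, 41.2 and 30.3 TPM. In vehicle replicates 1, 2 and 3 Vcan measured 9.84, 3.54 and 8.16 TPM and Enpp6 14.4, 13.8 and 11.3 TPM. Of the 13 genes of the list tested, 3 were higher with antagomir without overlap, Enpp6 among them, beside 5.07% of all tested genes. The 10 cell cycle genes gave 516, 450 and 515 TPM in the antagomir libraries and 435, 177 and 178 TPM in the vehicle libraries. The groups did not overlap in this sum, at 450 against 435 TPM for the nearest pair. Singly, 3 of the 10 genes were higher without overlap, beside 5.07% of all tested genes. Fold changes were positive in 10 of 10, beside 49.1% of all tested genes, with 0 calls by edgeR. The joint list of quiescent stem cells, which the titles name, and astrocytes, which they do not, lay on the other side. It had negative fold changes in 13 of 15 genes, a median log2 fold change of -0.32 and 0 calls by edgeR. In 8 of its 15 genes every antagomir library was below every vehicle library, beside 5.45% of all tested genes, and 6 lay under an unadjusted p of 0.05. Its gene with the smallest p, Hopx, a homeodomain protein of quiescent stem cells, measured 36.38, 27.24 and 28.92 CPM in antagomir replicates 1, 2 and 3, against 43.93, 45.81 and 56.56 CPM in vehicle replicates 1, 2 and 3 (log2 fold change -0.66, edgeR adjusted p = 0.949). Fold changes were negative in 8 of 8 ependymal genes (median -0.27) and in 10 of 10 microglia genes (median -2.18, or -0.021 without vehicle replicate 1), and positive in 12 of 13 oligodendrocyte precursor genes (median 0.67), with 0 calls in each list. The part of these cell types in the SoxC values was not tested. Endothelial cells, known for SoxF genes, were near the floor, with 5.50 to 20.7 summed TPM and Cdh5 at 0 in 5 of 6 libraries.

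Among genes reported to be activated by SoxC factors, 4 of 8 had positive and 4 negative fold changes, with 0 called by edgeR and a median log2 fold change of 0.080, or -0.16 without antagomir replicate 1. Tubb3, the tubulin of young neurons, measured 379, 105 and 92.4 TPM in the antagomir libraries and 186, 41.1 and 30.1 TPM in the vehicle libraries (log2 fold change 1.09, edgeR adjusted p = 0.949). Dcx, a microtubule protein of migrating neuroblasts, measured 79.1, 18.3 and 18.4 TPM in the antagomir libraries and 45.9, 8.59 and 6.25 TPM in the vehicle libraries. In both genes the replicates numbered 1 were far above the rest of their group, as in Sox4 and Sox11. Plxna1, a semaphorin receptor, was lower in every antagomir library, with 4.86, 4.28 and 5.21 TPM against 5.47, 6.46 and 5.54 TPM with vehicle (log2 fold change -0.37, edgeR adjusted p = 0.949). It was the 1 gene of the 8 without overlap, beside 5.45% of all tested genes that were lower in this way. Map2, of dendrites, had a log2 fold change of 0.20, Ezh2, a histone methyltransferase, 0.30, Tead2, of Hippo signalling, -0.21, the adhesion gene Nrcam -0.13 and the Notch effector Hes5 -0.044, none of them past the test.

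Of the 8 factors reported to act upstream of SoxC or beside it, 7 were tested, 3 with positive and 4 with negative fold changes, and edgeR called 0. Pou3f2, a POU factor that partners Sox proteins, had a log2 fold change of -0.51, and the chromatin remodelling ATPase gene Smarca4 one of 0.30. Pax6, which acts with that remodeller in adult neurogenesis, had one of 0.17, and Pou3f4 one of -0.17. Neurog2, a proneural factor, had no counts in 3 of 6 libraries.

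Sox4 and Sox11 were set beside the other reported miR-204 targets. Of the 14 genes on that list, SoxC members included, 9 had positive and 5 negative fold changes, with a median log2 fold change of 0.19, and edgeR called 0. Sox4 had a log2 fold change of 0.76 with all libraries and of 0.24 without antagomir replicate 1. The receptor gene Ephb2 had one of 0.65 (edgeR adjusted p = 0.949), and its groups did not overlap at 3.97, 3.85 and 3.58 TPM with antagomir against 3.08, 2.56 and 0.993 TPM with vehicle. It was the 1 gene of the 14 that was higher without overlap, beside 5.07% of all tested genes. Creb1, a transcription factor of neuronal survival, and the deacetylase gene Sirt1 both had a log2 fold change of 0.40. An 8mer or 7mer-m8 match stood in the 3′ UTR of 7 of the 12 others, beside 12.1% of all genes searched. Ephb2 had 0 matches of these types, but 2 once the 7mer-A1 type was counted. With that type counted, 12 of the 14 on the list had a match, beside 18.2% of all genes searched. The 3′ UTRs of the 12 others were 1250 to 5086 bases long, against a median of 701 over all genes, and the share at like length was not computed for them. Sox12, which is not on the list and has 3 matches, had a smaller fold change than Sox4 with 1 match, and the difference between them was not tested.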

How the data were processed

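Libraries were made from PicoPure RNA with the SMART-Seq v4 kit, which does not mark strand, and sequenced as 100 bp pairs, per the labels' protocols. Tools listed are kallisto and sleuth, and the build mm10, per the submitters' processing notes (version numbers: not given in the sources used here). Deposited estimated counts are kallisto's fragments per transcript, not normalized, and the deposited TPM values are scaled by effective transcript length, per the file headers. Of 99567 transcripts, 98294 (98.7%) matched GENCODE M21 (GRCm38) by identifier, while the rest, 0.524 to 0.586% of counts, was not used. Both units were summed per gene, and the counts then rounded.

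All genes were tested with edgeR 4.0.16 (R 4.3.3, TMM, filterByExpr with a minimum count of 10, robust quasi-likelihood, group as the only term), and the script was tested on simulated data. Alternatives used limma 3.58.1 and DESeq2 1.42.0. Groups came from sample titles, since the treatment protocol mentions the antagomir under every sample. No 2 libraries agreed within sampling noise (chi-square per gene of 23.7 or more over 15 pairs). The 3′ UTR of the most abundant coding transcript of each gene was searched. Genes named beside SoxC were the Sox family, per list those with the smallest p (at most 3 to 5), and the 6 nearest to each member, of which 1 is not reported here; others of the short lists and Cdh5 were named after their values were seen. Members and lists were chosen with earlier results of these data known. Protein sequences were not used here.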

Additional observations from a re-analysis of the deposited data

How the results depend on the processing

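The side of the test's threshold was the same for Sox4, Sox11 and Sox12 in all 16 alternatives, with 0 calls. Over 9 alternatives of scaling, tool, filter and transcripts the log2 fold change was 0.73 to 0.81 for Sox4, 0.32 to 0.39 for Sox11 and -0.012 to 0.12 for Sox12, where limma-voom gave the -0.012 and so turned the sign; the cause was not tested. With each library left out the ranges were 0.24 to 1.26 for Sox4, -0.31 to 1.03 for Sox11 and -0.37 to 0.38 for Sox12, and both negative values came without antagomir replicate 1. The adjusted p was 0.299 to 1.00 for Sox4 over its alternatives, 0.689 to 1.00 for Sox11 and 0.917 to 1.00 for Sox12. DESeq2, run without edgeR's filter, called 5 genes and the 15 other alternatives called 0. The summed SoxC level had a log2 ratio of group means of 0.75, with 0.655 in CPM and 0.215 to 1.198 with a library left out. The Sox11 share of SoxC was 7.42% with antagomir and 9.05% with vehicle in TPM, and 12.4% with antagomir and 15% with vehicle in CPM, because CPM is not divided by length. With a library left out it was 6.79 to 8.44% with antagomir and 8.20 to 10.3% with vehicle. Whether the replicate numbers pair the samples could not be settled. Deviations from the group mean had correlations of 0.195, 0.0749 and 0.0275 between libraries numbered 1, 2 and 3. Differently numbered libraries gave -0.186 to 0.14, and antagomir replicate 2 deviated most like vehicle replicate 3. With 3 libraries per group such correlations cannot decide it. With the replicate number as a block edgeR called 0 genes, with 1284 against 616 at an unadjusted p under 0.05, and the log2 fold change was 0.75 for Sox4 (edgeR unadjusted p = 0.000321, adjusted p = 0.299, antagomir higher in 3 of 3 same-numbered pairs), 0.36 for Sox11 and 1.6e-05 for Sox12. Counting error was 0.961 to 5.64% of each SoxC count, which limits comparisons of libraries that lie closer than that.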

Other observations

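Among the other Sox genes, Sox30, a gene known from the testis, was the only one of 12 tested under an unadjusted p of 0.05 in edgeR's quasi-likelihood test (log2 fold change -2.15, edgeR adjusted p = 0.949), so it was not called. It measured 0.304, 0.201 and 1.02 CPM in antagomir replicates 1, 2 and 3, against 1.69, 3.55 and 1.68 CPM in vehicle replicates 1, 2 and 3. Sox7, a SoxF gene of blood vessels, measured 0.916, 0.855 and 2.04 TPM in the antagomir libraries and 3.39, 2.63 and 1.74 TPM in the vehicle libraries, and the groups overlapped. Sox3, the X-linked SoxB1 gene of progenitors, did not follow SoxC: antagomir replicate 1 had 5.67 TPM and antagomir replicate 2 had 2.77 TPM, while antagomir replicate 3 had the highest value of 13.5 TPM, against 10.2, 5.07 and 6.91 TPM in vehicle replicates 1, 2 and 3.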
